A study of Arabidopsis thaliana with 6 samples.

Results

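The plant defensin genes PDF1.1, PDF1.2a, PDF1.2b, PDF1.2c, PDF1.3, PDF1.4, PDF1.5, PDF2.1, PDF2.2 and PDF2.3 were followed in Arabidopsis seedlings that carry the cpl2-2 allele and in the wild type (WT, accession Col). They are 10 of the 38192 genes in the deposited count table, and 7 of them were among the 19302 genes tested. The genes were chosen by family name after the PDF1 changes between these same libraries had been seen. Their cpl2-2 over WT values are therefore given as a description with no test. Tests are given for genes of other lists, which were also chosen with earlier results of these data known. The aerial parts of seedlings were sampled at 9 days in both genotypes, after growth at 23 °C with 16 h of light and 8 h of dark. The cpl2-2 plants are labelled as a knockout of CPL2 and the others as wild type. CPL2 encodes a relative of the phosphatases that remove phosphate from the tail of RNA polymerase II. Each genotype had 3 libraries, which the design text calls biological replicates. The mutant is represented by 1 allele, and the sources used here do not say where its lesion lies.

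Plant defensins are small secreted peptides, held together by disulfide bonds between cysteines, and many of them stop the growth of fungi. In Arabidopsis leaves PDF1.2 is the standard marker of the branch of defence in which jasmonate and ethylene act together. The transcription factors ERF1 and ORA59 drive that branch by binding GCC boxes in promoters, while MYC2 and salicylic acid signalling oppose it. PDF2 genes encode a separate subfamily of the same fold.

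In outline, PDF1.2a, PDF1.2b, PDF1.2c and PDF1.3 were all higher in every cpl2-2 library than in every WT library. The genotypes did not overlap, in either direction, in 39% of all genes tested. Summed with PDF1.1, the PDF1.2 genes and PDF1.3 stood at 20.5 ± 1.78 CPM (counts scaled to a common library size) in cpl2-2 and 2.36 ± 0.90 CPM in WT (SD, n = 3 each). PDF1.5 went the other way, with 0.217 ± 0.066 CPM in cpl2-2 and 1.37 ± 0.50 CPM in WT. The abundant PDF2.2 and PDF2.3 differed by less than 0.1 on the log2 scale. PDF1.1, PDF1.4 and PDF2.1 held too few counts to enter the fit.

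The 5 most alike PDF1 genes (PDF1.1, PDF1.2a, PDF1.2b, PDF1.2c and PDF1.3) are called the 5 PDF1 copies here. Each has 2 exons and 243 coding bases, including the stop codon. The coding sequences of the 4 copies that were detected in quantity are shown because their differences decide whether reads can be told apart. They were read from the RefSeq TAIR10.1 genome, 5′ to 3′, and capitals mark bases that differ from PDF1.3.
PDF1.3: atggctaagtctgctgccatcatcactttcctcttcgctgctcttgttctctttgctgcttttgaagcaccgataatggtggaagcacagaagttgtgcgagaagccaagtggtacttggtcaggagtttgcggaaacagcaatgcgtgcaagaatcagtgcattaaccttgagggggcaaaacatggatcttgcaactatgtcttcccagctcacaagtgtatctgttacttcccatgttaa
PDF1.2a: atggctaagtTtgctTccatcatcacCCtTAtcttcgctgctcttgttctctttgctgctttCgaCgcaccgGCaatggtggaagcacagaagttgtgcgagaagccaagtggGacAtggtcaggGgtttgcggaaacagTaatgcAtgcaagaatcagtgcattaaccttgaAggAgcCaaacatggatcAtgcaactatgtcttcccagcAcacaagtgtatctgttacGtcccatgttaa
PDF1.2b: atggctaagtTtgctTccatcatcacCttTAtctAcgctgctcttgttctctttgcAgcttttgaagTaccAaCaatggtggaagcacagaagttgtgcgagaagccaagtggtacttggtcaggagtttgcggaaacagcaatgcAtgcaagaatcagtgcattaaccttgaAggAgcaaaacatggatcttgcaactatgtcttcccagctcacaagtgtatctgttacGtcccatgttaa
PDF1.2c: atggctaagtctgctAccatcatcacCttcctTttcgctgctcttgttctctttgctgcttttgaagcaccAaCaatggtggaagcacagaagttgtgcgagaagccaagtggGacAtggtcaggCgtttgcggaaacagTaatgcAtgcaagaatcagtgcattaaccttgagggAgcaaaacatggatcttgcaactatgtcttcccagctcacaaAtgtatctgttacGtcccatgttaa
PDF1.2a differs from PDF1.3 at 21 bases, PDF1.2b at 14 and PDF1.2c at 13. The capitals are spread along the sequences, so the copies are alike without being identical. PDF1.5, the PDF1 gene that was lower in cpl2-2, is shown for contrast without capitals.
PDF1.5: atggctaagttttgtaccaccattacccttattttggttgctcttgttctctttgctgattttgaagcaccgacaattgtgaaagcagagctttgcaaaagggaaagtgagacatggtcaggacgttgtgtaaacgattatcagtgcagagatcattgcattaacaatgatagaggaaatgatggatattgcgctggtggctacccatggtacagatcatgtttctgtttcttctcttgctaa

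Among the 5 copies the coding sequences were 87.7% to 94.7% identical. PDF1.2c and PDF1.3 were the closest pair, at 13 coding bases and 3 residues apart, and PDF1.1 and PDF1.2b the farthest by base count, at 31 bases and 15 residues. Over whole transcripts the 5 copies were only 58.5% to 76.0% identical, their ends outside the coding part being less alike. PDF1.5 shared 71.8% to 74.9% of coding alignment columns with the 5 copies, and PDF1.4 shared 58.2% to 62.4%. The 3 PDF2 genes, with 234 coding bases each, were 84.7% to 88.5% identical to each other.

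**Figure D1:**
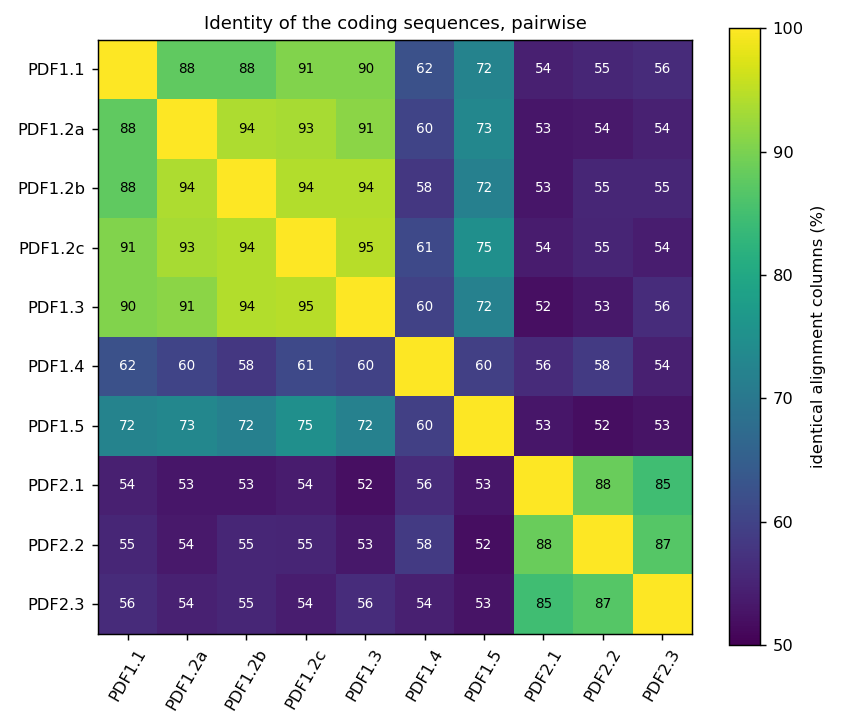
Pairwise identity of the coding sequences of the 10 defensin genes, in percent of global alignment columns, with the color scale from 50 to 100%. The 5 PDF1 copies form 1 block at 88% or more and the 3 PDF2 genes another at 85% or more, while PDF1.5 stands at 72 to 75% from the copies and PDF1.4 at 58 to 62%.

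A read that matches without error could be confused between copies only where a stretch of transcript is the same in both. Reads placed with mismatches could be confused elsewhere too, which was not tested. At a window of 50 bases, 28 of the 571 windows of PDF1.3 (4.9%) also occurred in PDF1.2b, and 28 of the 560 windows of PDF1.2b (5.0%) in PDF1.3. PDF1.2a and PDF1.2c shared 3 windows with each other (0.6% of each), and the other 6 genes shared none. At windows of 75, 100 and 150 bases no window of any of the 10 transcripts occurred in another. The sources used here give neither the read length nor how reads with several matches were counted, so counts are given both by gene and summed over copies.

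The copies lie in tandem. PDF1.3 (AT2G26010, chr2:11087280-11088001, plus strand) and PDF1.2b (AT2G26020, chr2:11089123-11089805, plus strand) are neighbours with 1121 bases between them. PDF1.2a (AT5G44420, chr5:17906968-17907638, minus strand) and PDF1.2c (AT5G44430, chr5:17908850-17909507, minus strand) are neighbours with 1211 bases between them. PDF2.1 (AT2G02120, chr2:538250-539123, plus strand) and PDF2.3 (AT2G02130, chr2:539898-540707, plus strand) are 774 bases apart, near PDF2.2 (AT2G02100, chr2:528179-529186, plus strand). PDF1.1 (AT1G75830, chr1:28472357-28472898, plus strand), PDF1.4 (AT1G19610, chr1:6781483-6782216, minus strand) and PDF1.5 (AT1G55010, chr1:20516916-20517531, plus strand) stand apart on chromosome 1. None of the 10 overlaps another annotated gene in the deposited table, whose coordinates are TAIR10.

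The promoters of PDF1.2a, PDF1.2b and PDF1.5 are shown because they hold the GCC box core, the letters GCCGCC, to which ERF factors bind. Each sequence is the 250 bases before the annotated start, on the gene's own strand, from RefSeq TAIR10.1. The capitals mark GCCGCC. The intervals are chr5:17907639-17907888 for PDF1.2a, chr2:11088873-11089122 for PDF1.2b and chr1:20516666-20516915 for PDF1.5.
PDF1.2a: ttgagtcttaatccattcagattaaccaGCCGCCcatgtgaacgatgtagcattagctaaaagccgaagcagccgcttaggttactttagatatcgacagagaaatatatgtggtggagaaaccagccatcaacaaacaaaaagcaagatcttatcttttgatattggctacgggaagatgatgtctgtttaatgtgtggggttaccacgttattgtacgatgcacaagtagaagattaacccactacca
PDF1.2b: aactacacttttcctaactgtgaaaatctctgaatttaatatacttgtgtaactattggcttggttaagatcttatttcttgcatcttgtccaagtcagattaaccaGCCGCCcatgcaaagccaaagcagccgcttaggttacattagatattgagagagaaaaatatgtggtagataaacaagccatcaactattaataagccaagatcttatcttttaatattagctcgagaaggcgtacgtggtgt
PDF1.5: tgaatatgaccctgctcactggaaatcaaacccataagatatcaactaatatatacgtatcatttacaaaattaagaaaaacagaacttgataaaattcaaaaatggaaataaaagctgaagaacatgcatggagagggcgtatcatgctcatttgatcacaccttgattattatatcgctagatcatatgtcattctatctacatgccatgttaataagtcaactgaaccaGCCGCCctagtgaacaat
GCCGCC began 222 bases before the start in PDF1.2a, 143 before it in PDF1.2b and 18 before it in PDF1.5. No other defensin of the 10 held it on either strand in the window from 250 bases before to 50 after the start. The same window held GCCGCC in 2.7% of 37997 genes of the deposited table on chromosomes 1 to 5, whatever their kind. When the window was extended to 1000 bases before the start, a search added after the files were seen, the same 3 genes held it and 9.2% of all genes did. PDF1.2b and PDF1.2a shared a run of 22 bases across the box, tcagattaaccaGCCGCCcatg.

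The higher and the lower PDF1 genes were thus not divided by this motif: PDF1.5 held it, and PDF1.2c and PDF1.3 did not. PDF1.2a and PDF1.2c shared a run of 23 bases, gtggtggagaaaccagccatcaa. Of the other motifs searched on both strands, the G-box CACGTG was in none of the 10 windows, against 6.5% of all genes. The W-box core TTGAC was in the windows of PDF1.1, PDF1.2c, PDF1.3, PDF1.4, PDF1.5, PDF2.1 and PDF2.3, and in 49.5% of all. The as-1 core TGACG, which can overlap TTGAC in TTGACG, was in those of PDF1.4 and PDF2.3, and in 22.6% of all. TATAAA was in those of PDF1.1, PDF1.2a, PDF1.2c, PDF1.3, PDF1.4, PDF2.1 and PDF2.3, and in 48.8% of all. Only in PDF1.1 and PDF1.2c did it lie before the start on the gene's own strand, at 34 and 28 bases. In PDF1.2a and PDF1.3 it lay after the start, and in PDF1.4, PDF2.1 and PDF2.3 on the opposite strand. A motif match describes the letters and says nothing of whether a factor binds there.

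The cpl2-2 libraries held 18299294 to 20653008 counts and the WT libraries 20756428 to 21098728. CPL2 itself (AT5G01270) had 198, 229 and 222 counts in cpl2-2, against 391, 378 and 393 in WT. Its level was 10.7 ± 0.15 CPM in cpl2-2 and 19.0 ± 0.47 CPM in WT (SD, n = 3 each; log2 fold change -0.82, SE 0.10, edgeR quasi-likelihood adjusted p = 6.01e-09), so part of the transcript was still counted. Of the genes tested, 27.3% were called at an adjusted p under 0.05, with 14.1% called higher in cpl2-2 and 13.3% called lower. Summed markers of leaf mesophyll came to 33900 to 35330 CPM in cpl2-2 and 41810 to 43050 CPM in WT, with all 4 of 4 genes called lower. Flower markers came to 10.7 to 13.2 CPM in cpl2-2 and 3.02 to 3.66 CPM in WT, from 6 genes of which 2 were tested and 1 was called higher. That 1 was SEP3, which made up most of the sum, at 9.68 ± 1.14 CPM in cpl2-2 and 2.32 ± 0.69 CPM in WT. The mean of AG went the other way, at 0.216 CPM in cpl2-2 and 0.294 CPM in WT, with overlapping groups. Guard cell and epidermis markers came to 352.8 to 359.8 CPM in cpl2-2 and 393.3 to 404.7 CPM in WT, and vasculature markers to 171.6 to 174.2 CPM in cpl2-2 and 199.8 to 209.2 CPM in WT. Root markers came to 327.3 to 355.8 CPM in cpl2-2 and 328.8 to 346.2 CPM in WT, a sum made up mostly of PYK10, which was not called (log2 fold change -0.03). Of the 5 root markers 4 were tested, and SCR (0.39, adjusted p = 0.000194) was called higher. CASP1 (1.25) was also called higher. It passed the filter on low counts in every cpl2-2 library but in WT only in replicate 3, so its call carries little weight. Seed markers were near 0 in both, with 0.332 to 0.970 CPM in cpl2-2 and 0 to 0.297 CPM in WT over 7 genes, and CRU2, CRU3 and SESA3 had no count in any library. In whole seedling tops, fewer cells of a type and less RNA per cell cannot be told apart. What part these markers have in the defensin values was not tested.

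Of the 7 defensin genes tested, 4 were called higher in cpl2-2 (14.1% of all genes tested were), 1 was called lower (13.3% of all) and 2 were not called. Since the genes were picked with this contrast known, nothing is read from these shares. PDF1.2b and PDF1.2c passed the filter on low counts only through cpl2-2, and PDF1.5 only through WT, so these 3 had to differ once they entered the fit. PDF1.2a passed in all 3 cpl2-2 libraries and 2 of the 3 WT libraries, and PDF1.3, PDF2.2 and PDF2.3 in all 6. With each alternative that kept the filter, 4 were called higher and 1 lower. With no filter all 10 genes were fitted, with 5 called higher and 1 lower.

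PDF1.3, whose product is a close relative of the PDF1.2 peptides, had the highest level per length of the 5 copies. It had 236, 281 and 226 counts in cpl2-2, against 44, 25 and 28 in WT. The lowest cpl2-2 library stood far above the highest WT library, and the groups did not overlap (39% of all genes tested did not). Its level was 12.3 ± 1.21 CPM in cpl2-2 and 1.59 ± 0.51 CPM in WT (SD, n = 3 each), a fitted log2 fold change of 2.95 (SE 0.20). The ratio of summed counts, scaled for library size, was 7.76 with an exact 95% interval of 6.28 to 9.70, which covers counting error only.

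PDF1.2a encodes the PDF1.2 peptide that serves as the marker of combined jasmonate and ethylene signalling. It had 87, 93 and 93 counts in cpl2-2, against 13, 4 and 17 in WT. The 3 cpl2-2 libraries lay close together, the 3 WT libraries were all lower, and WT replicate 2 was the lowest. The level was 4.52 ± 0.12 CPM in cpl2-2 and 0.555 ± 0.33 CPM in WT, a log2 fold change of 3.01 (SE 0.34), and the ratio of summed counts was 8.14 (interval 5.69 to 11.99).

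PDF1.2c, its tandem neighbour on chromosome 5, had 54, 58 and 34 counts in cpl2-2, against 8, 0 and 3 in WT. The genotypes did not overlap, and cpl2-2 replicate 3 was the lowest of its group. The level was 2.43 ± 0.68 CPM in cpl2-2 and 0.181 ± 0.20 CPM in WT. The fitted log2 fold change was 3.71 (SE 0.60) and the ratio of summed counts 13.4 (interval 7.30 to 27.5). The fitted value was 4.94 without WT replicate 1, which held 8 of the 11 WT counts, and 4.30 with limma-voom.

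PDF1.2b, the neighbour of PDF1.3 on chromosome 2, had 22, 27 and 28 counts in cpl2-2, against 0, 0 and 2 in WT. All WT counts came from replicate 3. The level was 1.27 ± 0.093 CPM in cpl2-2 and 0.0325 ± 0.056 CPM in WT. With so few WT counts the ratio of summed counts, 39.0, had a wide interval of 10.4 to 328. The fitted log2 fold change of 5.04 (SE 1.23) became 7.69 without WT replicate 3, a value set by the prior count because no WT count was then left.

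PDF1.1, first known as a seed defensin, had 1 count in cpl2-2 replicate 1 and none in the other 5 libraries. No fold is given for it. Its near absence stood beside seed markers that were near 0 in both genotypes.

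Summed over the 5 copies, the counts were 400, 459 and 381 in cpl2-2, against 65, 29 and 50 in WT. This total is not changed by reads placed on 1 copy in place of another. Reads dropped for matching several copies, or counted for each of them, would still change it. Every cpl2-2 library was above every WT library by a wide margin, and WT replicate 2 was again the lowest. The level was 20.5 ± 1.78 CPM in cpl2-2 and 2.36 ± 0.90 CPM in WT (SD, n = 3 each), a log2 fold change of 3.12 (SE 0.17), or 8.71-fold. The ratio of summed counts was 8.73 (interval 7.34 to 10.4). Leaving out any 1 library gave log2 fold changes from 2.86 to 3.41. The sum of the 3 PDF1.2 genes alone gave 3.41 (SE 0.30). With PDF1.4 and PDF1.5 added to the 5 copies the log2 fold change was 2.36, since PDF1.5 moved in the opposite direction.

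**Figure D2:**
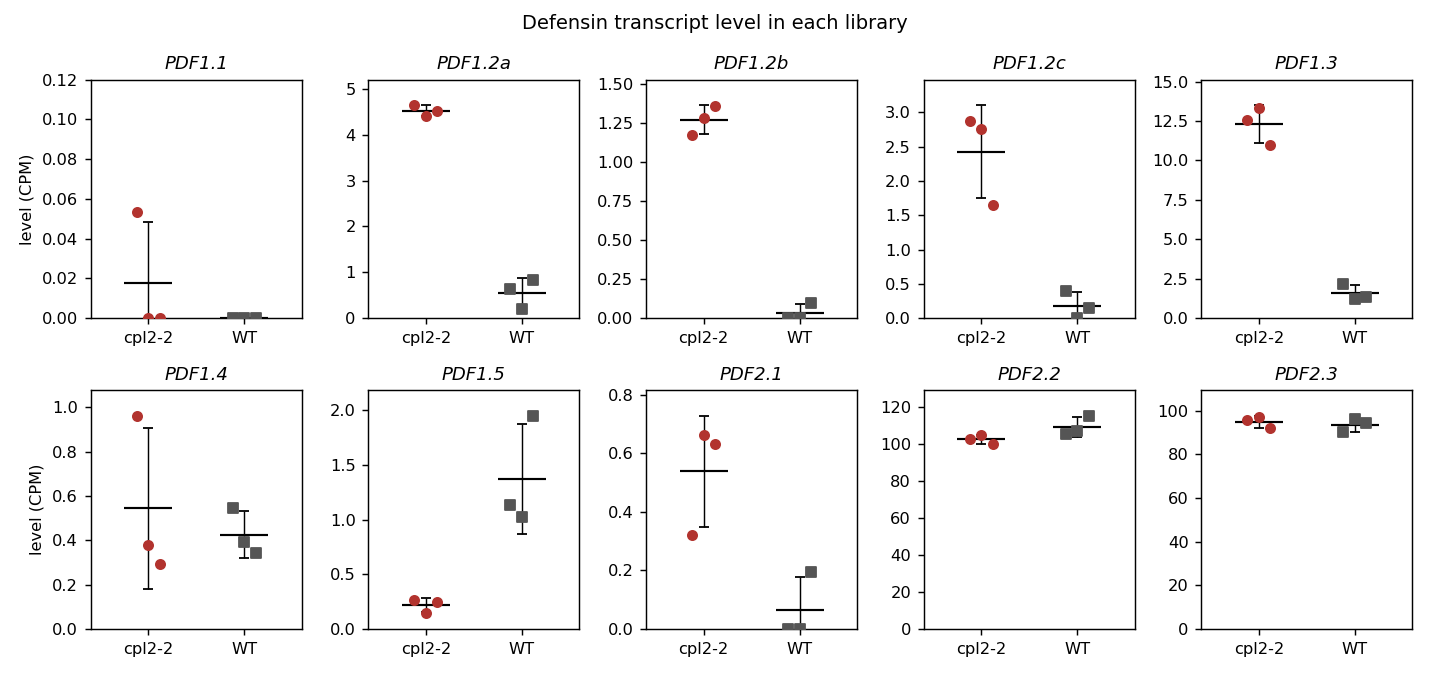
Level of each of the 10 defensin genes in CPM in the 3 cpl2-2 libraries (red circles) and the 3 WT libraries (grey squares), with the mean as a line and the SD as a bar, each panel on its own linear scale from 0. PDF1.2a, PDF1.2b, PDF1.2c, PDF1.3 and PDF2.1 show every cpl2-2 library above every WT library. PDF1.5 and PDF2.2 show every cpl2-2 library below every WT library, and the other 3 genes overlap. Of all genes tested, 39% did not overlap between the genotypes.

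The division of counts among the copies was compared as a share of their summed counts, not corrected for length. PDF1.3 held 59.0%, 61.2% and 59.3% in the cpl2-2 libraries, against 67.7%, 86.2% and 56.0% in the WT libraries. Pooled over libraries this was 59.9% in cpl2-2 (exact 95% interval 57.1 to 62.7) and 67.4% in WT (59.1 to 74.9). The intervals overlapped, but here and below they cover counting error only, not the spread between libraries. PDF1.2a held 22.0% in cpl2-2 and 23.6% in WT, and its 2 intervals overlapped as well. PDF1.2c held 11.8% in cpl2-2 and 7.64% in WT. PDF1.2b held 6.21% in cpl2-2 (interval 4.931 to 7.70) and 1.39% in WT (0.169 to 4.927), from 2 WT counts. The WT shares rest on 65, 29 and 50 counts per library, which limits what can be said of them.

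**Figure D3:**
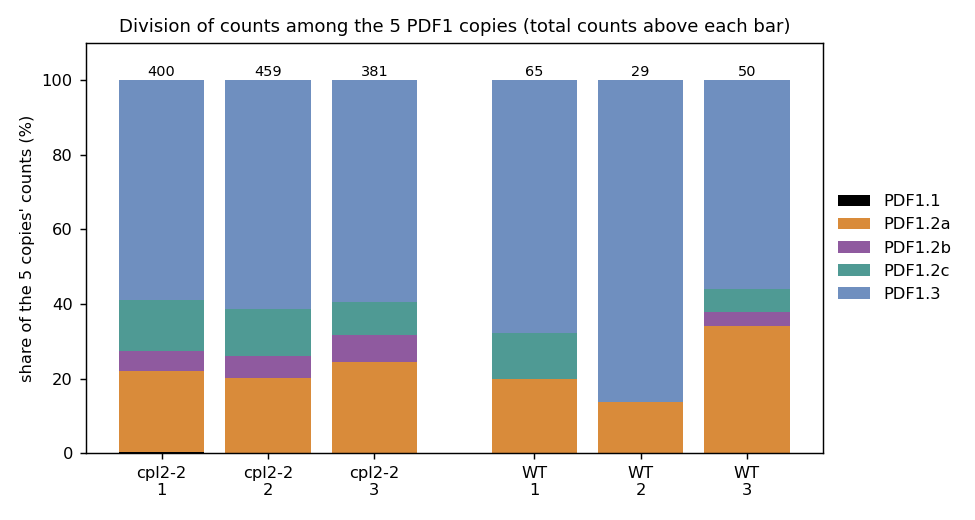
Share of each of the 5 PDF1 copies in their summed counts, in percent, for the 3 cpl2-2 libraries and the 3 WT libraries, with the summed count above each bar. PDF1.3 is the largest share in all 6 libraries, between 56.0 and 86.2%, and the WT bars vary more, on 29 to 65 counts against 381 to 459 in cpl2-2.

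PDF1.5 had 5, 3 and 5 counts in cpl2-2, against 23, 21 and 40 in WT. The genotypes did not overlap, and WT replicate 3 was the highest. The log2 fold change was -2.64 (SE 0.56), and the ratio of summed counts 0.157 (interval 0.080 to 0.283). Over the alternatives its log2 fold change lay between -2.81 and -2.29. The gene next to it, AT1G55000, which encodes a protein with a LysM domain and is 357 bases away, was called higher, with 28.4 ± 1.38 CPM in cpl2-2 and 22.1 ± 2.56 CPM in WT (log2 fold change 0.36, SE 0.083, adjusted p = 0.00056).

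PDF1.4, the least similar of the PDF1 genes in coding sequence, had 18, 8 and 6 counts in cpl2-2, against 11, 8 and 7 in WT. The groups overlapped, and the ratio of summed counts was 1.25 (interval 0.720 to 2.18). At this depth no difference was detectable.

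Among the PDF2 genes, PDF2.2 had 1919, 2205 and 2057 counts in cpl2-2, against 2125, 2196 and 2361 in WT. Scaled for library size, the 3 cpl2-2 values of 102.4, 104.6 and 99.8 CPM lay just under the 3 WT values of 105.0, 107.1 and 115.0 CPM. Its mean was 102.3 ± 2.39 CPM in cpl2-2 and 109.1 ± 5.28 CPM in WT, a log2 fold change of -0.09 (SE 0.045) that was not called. A lack of overlap between the groups was found for 39% of all genes tested.

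PDF2.3 had 1795, 2049 and 1895 counts in cpl2-2, against 1824, 1972 and 1943 in WT. Its mean was 94.96 ± 2.70 CPM in cpl2-2 and 93.7 ± 3.14 CPM in WT, a log2 fold change of 0.02 (SE 0.047) that was not called, and the groups overlapped. This value was -0.01 without WT replicate 1 and 0.09 when scaled by library totals alone.

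PDF2.1, which sits between PDF2.2 and PDF2.3, had 6, 14 and 13 counts in cpl2-2, against 0, 0 and 4 in WT. The groups did not overlap, and the ratio of summed counts was 8.36 (interval 2.97 to 32.5), but the gene missed the filter and was not tested. PDF2.2 and PDF2.3, at far higher counts, showed no such difference. Summed over the 3 PDF2 genes, the counts were 3720, 4268 and 3965 in cpl2-2, against 3949, 4168 and 4308 in WT. The log2 fold change of this sum was -0.04 (SE 0.036), with overlapping groups at 197.8 ± 5.05 CPM in cpl2-2 and 202.8 ± 7.37 CPM in WT.

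**Figure D4:**
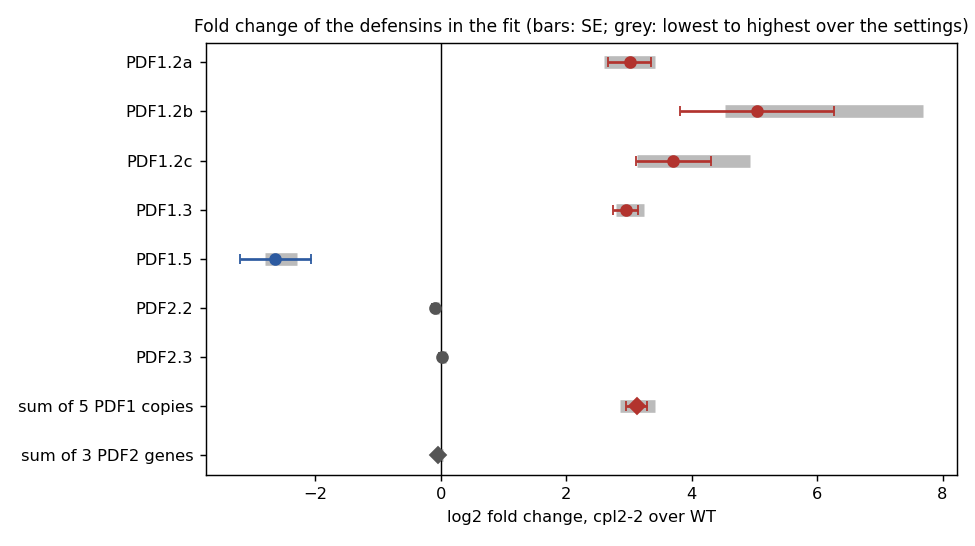
Fitted log2 fold change, cpl2-2 over WT, of the 7 defensin genes in the fit and of the sums over the 5 PDF1 copies and over the 3 PDF2 genes, with the SE as a bar and, in grey, the lowest and highest value over the alternatives. The PDF1.2 genes, PDF1.3 and the PDF1 sum lie near 3 or above, PDF1.5 lies at -2.64, and the PDF2 values lie at 0 within 0.1, while PDF1.2b has the widest grey range, up to 7.69.

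Levels were set side by side between genes as RPKM, which is CPM divided by the transcript's length in kilobases. In cpl2-2, PDF2.2 at 135.8 ± 3.17 RPKM and PDF2.3 at 134.3 ± 3.82 RPKM overlapped, though PDF2.2 was slightly higher within each library. They were followed by PDF1.3 at 19.8 ± 1.95, PDF1.2a at 7.81 ± 0.20, PDF1.2c at 4.43 ± 1.23 and PDF1.2b at 2.09 ± 0.15 RPKM, each apart from the next. PDF2.1 at 0.922 ± 0.32, PDF1.4 at 0.877 ± 0.59 and PDF1.5 at 0.407 ± 0.12 RPKM came next, with PDF1.4 overlapping both of the others, and PDF1.1 was last at 0.041 ± 0.071 RPKM, below PDF1.5 with no overlap.

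In WT the order was different below the first pair. PDF2.2 stood at 144.8 ± 7.01 RPKM and PDF2.3 at 132.5 ± 4.44 RPKM, with no overlap. PDF1.5 came next at 2.57 ± 0.95 RPKM, level with PDF1.3 at 2.56 ± 0.83 RPKM within their spread. PDF1.2a at 0.959 ± 0.56, PDF1.4 at 0.685 ± 0.17, PDF1.2c at 0.329 ± 0.36, PDF2.1 at 0.111 ± 0.19 and PDF1.2b at 0.053 ± 0.092 RPKM followed, with neighbours in this order overlapping, and PDF1.1 was at 0. PDF1.5 was thus at rank 9 of the 10 by level in cpl2-2 and at rank 3 in WT. PDF2.2 and PDF2.3 together made up 89.7% to 90.7% of all counts on the 10 genes, not corrected for length, in cpl2-2 and 97.5% to 98.6% in WT, and the 5 PDF1 copies 8.74% to 9.69% in cpl2-2 and 0.686% to 1.61% in WT.

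The genes known to act before or beside PDF1.2 were taken as 8 lists of 77 genes, which were chosen with earlier results of these data known. Of 70 tested, 24 were called higher in cpl2-2 and 12 lower, with a median log2 fold change of 0.12 over the lists beside -0.002 over all genes tested. Of all genes tested, 14.1% were called higher and 13.3% lower, and the counts of each list below stand beside these shares. The edgeR quasi-likelihood test adjusted over all 19302 genes was used for each gene below.

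Among 12 activators of the ERF branch, 10 were tested, 2 were called higher and 3 lower (median -0.08). ERF1, the integrator of ethylene and jasmonate signals, had 2, 1 and 0 counts in cpl2-2 and none in WT, and was not tested. ORA59, the factor most directly tied to PDF1.2, had 23, 57 and 66 counts in cpl2-2, against 35, 28 and 42 in WT. The ORA59 groups overlapped because cpl2-2 replicate 1 was the lowest of all 6, and the log2 fold change of 0.48 (SE 0.30, adjusted p = 0.249) was not called. Without that library it was 0.78 and called (adjusted p = 0.0464).

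Of the other activators, ERF2 was higher in cpl2-2, at 12.02 ± 2.23 CPM in cpl2-2 and 8.32 ± 0.81 CPM in WT (log2 fold change 0.53, SE 0.13, adjusted p = 0.00132). MED25, a Mediator subunit through which ERF factors act, was called at 0.30 (adjusted p = 0.0238) but lost the call in 5 of 11 alternatives. ERF104 was lower, at 3.63 ± 0.39 CPM in cpl2-2 and 10.6 ± 0.62 CPM in WT (-1.54, SE 0.16, adjusted p = 2.03e-11), and so was ERF5, at 3.78 ± 0.29 CPM in cpl2-2 and 7.70 ± 0.75 CPM in WT (-1.03, SE 0.17, adjusted p = 3.37e-06). TGA6 was called lower at -0.56 (adjusted p = 0.0109), a call lost in 2 alternatives. TGA6 overlaps a gene on the opposite strand, and the sources used here do not say whether counting used the strand.

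Of 12 repressors of PDF1.2, 1 was called higher and none lower (median 0.10). The 1 was WRKY50, with 23, 38 and 16 counts in cpl2-2, against 2, 9 and 10 in WT (log2 fold change 1.87, SE 0.52), and it passed the filter on low counts only through cpl2-2. MYC2, which opposes the ERF branch, stood at 48.3 ± 2.73 CPM in cpl2-2 and 47.8 ± 3.43 CPM in WT (0.01, SE 0.064, adjusted p = 0.911), and its groups overlapped. MYC2 also overlaps a gene on the opposite strand.

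Of 16 genes of ethylene synthesis and signalling, 15 were tested, 7 were called higher and 2 lower (median 0.15). EIN2, the membrane protein that passes the signal on, was at 85.5 ± 0.84 CPM in cpl2-2 and 67.4 ± 3.99 CPM in WT (0.34, SE 0.052, adjusted p = 5.52e-07). EIN3, the transcription factor that induces ERF1, was at 96.6 ± 1.74 CPM in cpl2-2 and 84.0 ± 5.47 CPM in WT (0.20, SE 0.049, adjusted p = 0.00121). EBF2, part of the complex that degrades EIN3, was also higher (0.32, adjusted p = 0.000351), and it overlaps a gene on the opposite strand. The synthesis genes ACS6 (-1.15, SE 0.13, adjusted p = 2.08e-10) and ACO4 (-0.14, adjusted p = 0.000238) were lower. The ACO4 call was lost with library totals, at an adjusted p of 0.0646.

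All 20 genes of jasmonate synthesis and perception were tested, with 6 called higher and 4 lower (median 0.02). AOC1, which encodes an allene oxide cyclase, was lower, at 18.2 ± 1.21 CPM in cpl2-2 and 35.9 ± 2.91 CPM in WT (-0.98, SE 0.081, adjusted p = 6.04e-14). AOS, the enzyme before it in the pathway, was lower at -0.34 (adjusted p = 4.53e-11). JAR1, which makes the active jasmonate conjugate, was higher, at 66.7 ± 2.84 CPM in cpl2-2 and 45.9 ± 4.65 CPM in WT (0.54, SE 0.063, adjusted p = 1.39e-09). LOX3 was higher at 0.72 (SE 0.085, adjusted p = 2.11e-09). COI1, the F-box protein of the jasmonate receptor, was higher at 0.32 (adjusted p = 0.000365), and it overlaps a gene on the opposite strand.

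Of 4 other targets of the ERF branch, all tested, 3 were called higher and none lower (median 0.80). PR4, which encodes a chitin-binding protein, was at 59.6 ± 3.002 CPM in cpl2-2 and 38.2 ± 2.35 CPM in WT (0.64, SE 0.064, adjusted p = 1.64e-11). CHIB, a basic chitinase, had 73, 80 and 48 counts in cpl2-2, against 43, 32 and 30 in WT (0.96, SE 0.27, adjusted p = 0.00451). THI2.1, a thionin gene, had 17, 26 and 10 counts in cpl2-2, against 3, 1 and 3 in WT (2.87, SE 0.76). THI2.1 passed the filter on low counts only through cpl2-2, so it had to differ once it was in the fit. CHIB and THI2.1 overlap genes on the opposite strand. PAD3, a camalexin synthesis gene, was not called at -0.98 (adjusted p = 0.0947).

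Targets of the opposing MYC branch were divided, with 2 of 6 called higher and 3 lower (median -0.06). VSP2 (-0.51, adjusted p = 1.94e-08), VSP1 (-0.41, adjusted p = 0.0031) and CYP79B3 (-0.29, adjusted p = 0.000147) were lower. TAT3 was higher (0.89, adjusted p = 8.32e-06). NAC055, with 19, 10 and 31 counts in cpl2-2 against 3, 1 and 13 in WT, was also called higher (1.82). It passed the filter on low counts in every cpl2-2 library but in WT only in replicate 3, so its call carries little weight. The NAC055 call was lost without cpl2-2 replicate 3, WT replicate 1 or WT replicate 2. Its log2 fold change was 3.26 without WT replicate 3.

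All 3 salicylic acid markers were called higher (median 1.01). PR1 had 401, 347 and 399 counts in cpl2-2, against 23, 21 and 23 in WT, at 19.1 ± 2.48 CPM in cpl2-2 and 1.09 ± 0.061 CPM in WT (4.11, SE 0.20, adjusted p = 3.13e-25). PR2 (1.01, adjusted p = 0.000105) and PR5 (0.82, adjusted p = 1.17e-09) were higher by smaller amounts. The PDF1 copies and the salicylic acid markers were thus higher in the same libraries.

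**Figure D5:**
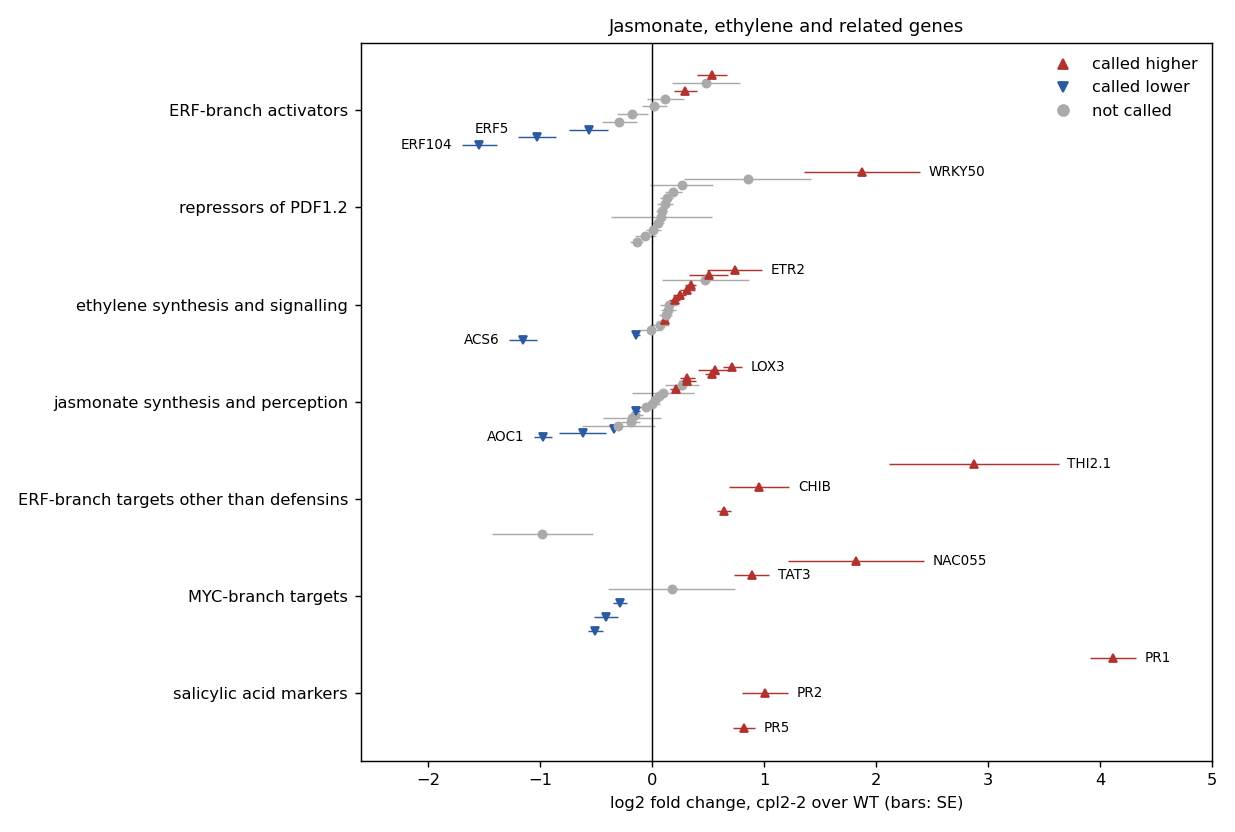
Log2 fold change, cpl2-2 over WT, with the SE, of the tested genes in 7 lists around PDF1.2, with red upward triangles for genes called higher, blue downward triangles for genes called lower and grey circles for the rest. The regulators lie on both sides of 0, with ERF104 at -1.54 and WRKY50 at 1.87, while THI2.1 at 2.87 and PR1 at 4.11 lie farthest to the right.

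The pattern of the PDF1 sum over the 6 libraries was set beside that of each other tested gene, by the root mean square difference of log2 CPM centred on the gene's mean. The 5 most alike were AT5G28520, a mannose-binding lectin (0.206), AT1G70185, listed as an RNA gene (0.247), AT3G23510, a cyclopropane fatty acid synthase (0.27), AT5G59240, a ribosomal protein S8e (0.285), and AT1G75590, a SAUR-like protein (0.307). AT3G23510 had 186, 199 and 232 counts in cpl2-2, against 27, 20 and 22 in WT. AT5G59240 had 345, 367 and 341 counts in cpl2-2, against 67, 39 and 35 in WT. These genes were picked for a pattern like that of the PDF1 sum, so their difference between the genotypes follows from the choice and carries no test. For the PDF2 sum the closest were EMB3119 (0.0139), ZAC (0.016), AT3G13410 (0.0163), PSB28 (0.0181) and AT2G39020 (0.0181), which were picked in the same way.

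The genes next to the defensins were looked at as well. Of 14 flanking genes that are not among the 10, 7 were tested, 2 were called higher and none lower, beside 27.3% of all genes tested that were called in either direction. The 2 were AT1G55000 beside PDF1.5 and AT1G19600 beside PDF1.4 (log2 fold change 0.25, SE 0.067, adjusted p = 0.00287). BRIZ2 and AT2G26030, which flank the pair of PDF1.3 and PDF1.2b, stood at -0.03 (SE 0.20, adjusted p = 0.934) and -0.15 (SE 0.19, adjusted p = 0.594) and were not called. On chromosome 5, AT5G44418 and AT5G44440, which flank the pair of PDF1.2a and PDF1.2c, were not tested, the first with no count and the second with at most 5 in any library.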

How the data were processed

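RNA was measured by sequencing in 6 libraries, 3 of cpl2-2 and 3 of WT. The authors deposited raw whole-number counts per gene, and the unit was read from the values. The submitters' processing notes name the aligner HISAT2 2.0.5 and the genome TAIR10. The sources used here give no counting program, strand setting, rule for reads with several matches, annotation release or read length. The library kit keeps the strand, per the labels. Rows with no locus identifier (434) held 0.00807% of the counts.

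Genes were kept by edgeR's filterByExpr (edgeR 4.0.16, R 4.3.3, minimum count 10, about 0.483 CPM in 3 libraries), which left 19302. TMM factors scaled the counts, and edgeR's quasi-likelihood test compared the genotypes with no further term. P-values were adjusted by Benjamini-Hochberg over the whole set tested, and the threshold was 0.05. CPM values and RPKM values were computed here from the deposited counts, RPKM with the table's gene lengths. DESeq2 1.42.0 and limma 3.58.1 served as alternatives. The fit was tested on simulated data. Sums over copies replaced the copies in the fit. Sequences were read from RefSeq TAIR10.1 with Biopython 1.88, and 37566 of 37570 matched genes had the same coordinates there as in the table.

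The genes named are the 10 defensins, CPL2, up to 4 called genes with the smallest p from each list and 8 others fixed by name (ORA59, ERF1, EIN3, MYC2, COI1, PR4, CHIB and PR1), the 5 genes most alike in pattern to each sum, and flanking genes. MED25, PAD3 and NAC055 and the genes of the other observations were named after their values were seen. The members and lists were chosen with earlier results of these data known.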

Additional observations from a re-analysis of the deposited data

How the results depend on the processing

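The call counts in the 77 pathway genes and the log2 fold changes of the PDF1 sum and of CPL2 kept their direction under all 11 alternatives. With scaling by library totals alone, 3952 genes were called higher and 1666 lower, against 2717 and 2560 with TMM, and the median log2 fold change of all genes was 0.07. The PDF2 sum then stood at 0.032, and the PDF1 sum at 3.19. With all 7 PDF1 genes summed, the log2 fold change was 2.36, since PDF1.5 is lower in cpl2-2. Leaving out 1 library gave 4498 to 4818 calls in all, 2.86 to 3.41 for the PDF1 sum and -0.06 to -0.01 for the PDF2 sum. Of the 36 calls in the pathway lists, 28 stood under all 11 alternatives; ACO4, AOC2, MED25, ERS2, TGA6, JAZ1, ETR2 and NAC055 were lost in 1 to 5 of them, and none changed sign. With the replicate number as a block, the PDF1 sum stood at 3.13, the PDF2 sum at -0.04 and 5228 genes were called. Same-numbered libraries did not deviate together (correlations -0.012, 0.0105 and 0.0135). With 3 libraries per genotype this cannot tell whether same-numbered libraries were grown or prepared together. Depth limits PDF1.1, PDF1.4 and PDF2.1, with 1 to 58 counts over all 6 libraries, and the WT levels of PDF1.2b and PDF1.2c.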

Other observations

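Beyond the 10 genes, the deposited descriptions name 88 further genes as defensin-like proteins, a list that was drawn up after the data were seen. Of these, 70 had no count in any library and 2 were tested. AT4G22212 stood at 0.823 ± 0.19 CPM in cpl2-2 and 0.262 ± 0.14 CPM in WT (SD, n = 3 each; log2 fold change 1.64, SE 0.58). It passed the filter on low counts only through cpl2-2, so it had to differ once it was in the fit. AT4G22233 was not called. The other PDF genes were nearly silent in these seedlings. PDF2.4 and PDF2.6 had no count in any library, PDF2.5 had none in cpl2-2 and 1 in each WT library, and AT5G38330 had 0, 0 and 3 counts in cpl2-2 and none in WT.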
